A study of Mus musculus with 3 samples.

Results

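The glucocorticoid receptor and the proteins that fold and carry it are encoded by 10 genes, which were described here in control cells and in cells with receptor knockdown. The genes were chosen by symbol as the receptor gene Nr3c1 and 9 genes of its chaperone cycle (Hsp90aa1, Hsp90ab1, Stip1, Ptges3, Fkbp5, Fkbp4, Ppid, Bag1 and Stub1). All 10 were found among the 51803 gene symbols of the abundance table, and all 10 were among the 15438 symbols over 0.3 FPKM (an abundance unit that corrects fragment number for transcript length and library size) in at least 1 library, the level taken here as expressed. Transcript abundance was measured by RNA-seq, with and without receptor knockdown, in mpkCCD cells, a mouse line that models principal cells of the collecting duct of the kidney and was re-cloned for high Aqp2 expression. The shCtrl cells carried a non-targeting small hairpin RNA, the shGR1 cells hairpin 1 against the receptor and the shGR2 cells hairpin 2, each delivered by lentivirus and kept by puromycin selection. All 3 lines were mouse cells grown on membrane supports, had serum and supplements other than the receptor agonist dexamethasone withdrawn, and received no dDAVP, the vasopressin analog. Each line gave 1 library and therefore has no replicate of its own; an SD is the spread of the log2 ratios of shGR1 and shGR2. The knockdown is partial and stable, so each knockdown line still held receptor transcript and had lived with less of it before RNA was taken.

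In the resting cell, the receptor is made competent to bind hormone by chaperones. HSP70 with its HSP40 partners first binds the newly made receptor, the adaptor HOP hands it to an HSP90 dimer, and the co-chaperone p23 closes the complex, which then carries 1 immunophilin, either FKBP51, FKBP52 or cyclophilin 40. FKBP51 holds the receptor in a state of lower hormone affinity, whereas FKBP52 links it to the dynein motor for transport to the nucleus, and BAG1 and the ubiquitin ligase CHIP act on the HSP70-bound receptor. Fkbp5, the gene of FKBP51, is itself induced by the hormone-bound receptor in many tissues, which closes a negative feedback loop.

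The sequences that set apart the transcripts discussed further on are shown first. Ptges3-201 and Ptges3-202 differ by exon 5 (chr10:128072068-128072157, GRCm38), a run of 90 bases that encodes 30 codons. It is in capitals in Ptges3-201, with 15 bases of the neighbouring exon on each side in lower case, and the joined flanks are the same stretch of Ptges3-202.
Ptges3-201: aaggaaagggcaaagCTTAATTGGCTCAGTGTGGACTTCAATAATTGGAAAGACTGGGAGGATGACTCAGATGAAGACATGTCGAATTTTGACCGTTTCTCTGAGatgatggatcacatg
Ptges3-202: aaggaaagggcaaagatgatggatcacatg
Hsp90ab1-206 skips 37 bases within exon 3 of Hsp90ab1-201 (chr17:45571482-45571518, GRCm38), a number that leaves a remainder of 1 on division by 3. These are the capitals in the stretch of Hsp90ab1-201 that follows, read on the minus strand, with 15 flanking bases on each side.
Hsp90ab1-201: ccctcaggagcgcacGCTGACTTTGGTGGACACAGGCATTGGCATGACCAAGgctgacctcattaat
Transcript sequences are those of GENCODE M21 on GRCm38. For the paralogs Fkbp5 and Fkbp4, whose ratios to the control differed, the 250 bases before the RefSeq start (GRCm38.p6) are shown, chr17:28486150-28486399 for Fkbp5 and chr6:128438657-128438906 for Fkbp4, both on the minus strand. The last bases shown for Fkbp4 lie within its GENCODE gene model, and the stretch of Fkbp5 lies inside the longer GENCODE gene span. Capitals mark a match to the short heat shock element GAANNTTC.
Fkbp5 promoter: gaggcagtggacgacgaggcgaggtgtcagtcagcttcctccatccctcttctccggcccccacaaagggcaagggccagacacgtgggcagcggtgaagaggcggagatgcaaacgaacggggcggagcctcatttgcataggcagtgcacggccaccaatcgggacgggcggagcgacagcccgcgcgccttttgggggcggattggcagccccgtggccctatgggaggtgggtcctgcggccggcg
Fkbp4 promoter: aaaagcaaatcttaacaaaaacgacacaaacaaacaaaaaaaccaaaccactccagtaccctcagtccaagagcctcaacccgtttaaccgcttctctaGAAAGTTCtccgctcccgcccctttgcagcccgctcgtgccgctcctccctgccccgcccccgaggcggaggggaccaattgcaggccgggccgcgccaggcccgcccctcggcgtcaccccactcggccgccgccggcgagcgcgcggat

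Nr3c1, the gene of the receptor itself, lies on chromosome 18 (39410545 to 39519421, GRCm38, minus strand). Its level was 30.2 FPKM in shCtrl against 4.41 in shGR1 and 9.13 in shGR2, so both knockdown lines were below the control line and shGR1 was the lowest. Relative to shCtrl the transcript stood at 14.6% in shGR1 and 30.3% in shGR2, which averages to -2.25 ± 0.74 (SD, n = 2 lines) on the log2 scale. By quantitative RT-PCR, the paper reported a smaller reduction of receptor mRNA, nearly equal for both hairpins. The difference between the knockdown lines seen here rests on single libraries. In bulk RNA, fewer cells with the transcript and less transcript per cell cannot be told apart. Among expressed genes, the level stood at percentile 76.8 in shCtrl against 35.0 in shGR1 and 48.2 in shGR2. Its mean log2 ratio had rank 127 from the lowest among expressed genes with a finite ratio in both lines, so genes at 0 in a line were not ranked. Limma with Benjamini-Hochberg adjustment over all 15438 genes gave an adjusted p of 0.298. In that fit the spread comes from the one between shGR1 and shGR2, pulled toward a trend over all genes. The single shCtrl library is taken to have the same spread.

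The lower level extended over the more abundant isoforms of the receptor gene. All 6 of the Nr3c1 transcripts over 0.3 FPKM in any library were lower in both knockdown lines. For Nr3c1-201, Nr3c1-205 and Nr3c1-206 this followed from the filter, because they were over 0.3 FPKM in shCtrl only. Nr3c1-203, Nr3c1-204 and Nr3c1-208 were over 0.3 FPKM in a knockdown line as well, so the filter did not fix their direction. The main one, Nr3c1-204, was at 20.4 FPKM in shCtrl against 2.98 in shGR1 and 7.61 in shGR2 and made up 67.5%, 67.6% and 83.3% of the gene. Nr3c1-203, which has the same 8 coding exons (2376 coding bases) as Nr3c1-204, was at 3.44, 0.811 and 0.181 FPKM in the same order of lines. Nr3c1-208, annotated with a coding part of 1466 bases, was at 4.51, 0.398 and 0.834 FPKM. Nr3c1-203 was thus lowest in shGR2, while Nr3c1-204 and Nr3c1-208 were lowest in shGR1.

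Fkbp5 encodes FKBP51, the immunophilin that restrains the receptor. It lies on chromosome 17 (28399094 to 28517527, GRCm38, minus strand). Its level was 97.1 FPKM in shCtrl against 26.5 in shGR1 and 24.8 in shGR2, and the knockdown lines lay close together, at 27.3% and 25.6% of the control. The mean log2 ratio was -1.92 ± 0.06 (SD, n = 2 lines), rank 180 from the lowest among expressed genes with a finite ratio in both lines. Its adjusted p (limma, Benjamini-Hochberg) was 0.199, which equals the smallest of the fit. Fkbp5-201 accounted for 95.4%, 98.1% and 91.4% of the gene in shCtrl, shGR1 and shGR2. It was at 92.6, 26.0 and 22.7 FPKM, so the lower level of the gene was that of its main transcript. Fkbp5 overlaps 4 other annotated genes (Gm22146 and 3 clone-named genes), and whether the libraries were stranded is not known from the sources read here, so its value is uncertain to the extent that reads were shared. In these libraries, residual receptor transcript was lower in shGR1 than in shGR2, whereas Fkbp5 was slightly lower in shGR2. Both are differences between 2 single libraries and were not tested.

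**Figure D1:**
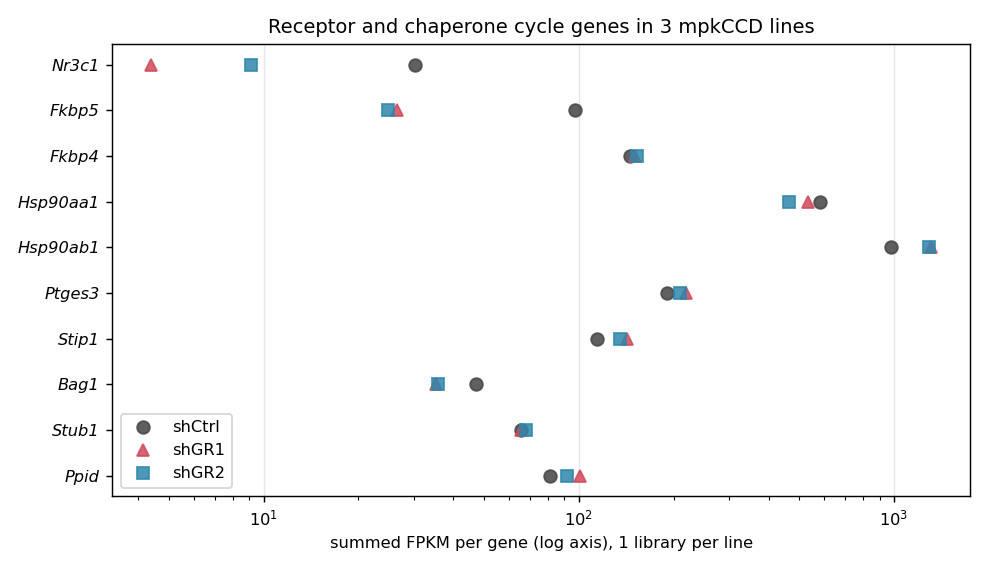
Summed FPKM of each of the 10 genes (log axis) in the shCtrl (circle), shGR1 (triangle) and shGR2 (square) libraries, 1 library per line. Nr3c1 (30.2, 4.41 and 9.13 FPKM) and Fkbp5 (97.1, 26.5 and 24.8 FPKM) show wide gaps between the control and the knockdown lines, whereas the points of Fkbp4 and Stub1 lie almost on top of each other.

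The other immunophilins of the receptor complex did not share the pattern of Fkbp5. Fkbp4, the gene of FKBP52 on chromosome 6 (128429735 to 128438677), was at 145 FPKM in shCtrl against 151 in shGR1 and 153 in shGR2. The 3 values lay within 10% of one another, with a mean log2 ratio of 0.07 ± 0.01 (SD, n = 2 lines) and a limma Benjamini-Hochberg adjusted p of 0.725. Ppid, the gene of cyclophilin 40 on chromosome 3 (79591342 to 79603650), was at 81.0, 101 and 91.6 FPKM, slightly above the control in both knockdown lines at 0.25 ± 0.10. The limma adjusted p of Ppid after Benjamini-Hochberg was 0.418. The abundance of Fkbp5 relative to Fkbp4, both per length, was 0.669 in shCtrl against 0.175 in shGR1 and 0.163 in shGR2. The balance of the 2 FKBP transcripts was therefore lower in both knockdown lines, and it was so through Fkbp5. Fkbp5 also moved in the order of levels. In shCtrl it stood between Stip1 and Ppid, and in both knockdown lines between Bag1 and Nr3c1.

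HSP90, the chaperone that holds the receptor open for hormone, is encoded by Hsp90aa1 (alpha, the stress-inducible form) and Hsp90ab1 (beta, the constitutive form). Hsp90ab1, on chromosome 17 (45567775 to 45573271), was the most abundant of the 10 genes, at 981 FPKM in shCtrl against 1315 in shGR1 and 1289 in shGR2. Both knockdown lines were above the control, with a mean log2 ratio of 0.41 ± 0.02 (SD, n = 2 lines). The limma Benjamini-Hochberg adjusted p was 0.303. Hsp90aa1, on chromosome 12 (110690605 to 110702728), was at 582, 534 and 463 FPKM, a mean log2 ratio of -0.23 ± 0.14 and a limma Benjamini-Hochberg adjusted p of 0.510. With quantile normalization the ratio of Hsp90aa1 was -0.07 and differed in direction between the lines. Hsp90ab1 relative to Hsp90aa1 was 1.69 in shCtrl against 2.46 in shGR1 and 2.78 in shGR2. With transcripts weighted by length the ratios were 1.12, 1.45 and 1.66, lower in each line and in the same order. The paralogs can share reads with each other and with processed copies in the genome, so the values of both are uncertain.

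The higher level of Hsp90ab1 was mostly that of a short isoform annotated for nonsense-mediated decay. Hsp90ab1-201, the full-length coding transcript, stayed at 743 FPKM in shCtrl against 759 in shGR1 and 755 in shGR2. Hsp90ab1-206, 703 nt long, was at 182, 419 and 430 FPKM, more than 2-fold higher in both knockdown lines. Its share of the gene was 18.6%, 31.8% and 33.3%. With only protein-coding transcripts summed, the limma log2 ratio of Hsp90ab1 was 0.12. With transcripts weighted by length, a setting chosen after seeing the data, it was 0.16. FPKM is per length, so a short transcript adds more to the summed value than to the number of fragments. The full-length HSP90 transcripts (Hsp90aa1-201, Hsp90aa1-202 and Hsp90ab1-201) summed to 1310 FPKM in shCtrl against 1287 in shGR1 and 1205 in shGR2, whereas both genes with all their transcripts summed to 1563, 1848 and 1753 FPKM. Per 1000 FPKM of this sum over all transcripts, which includes Hsp90ab1-206, Nr3c1 was at 19.3, 2.39 and 5.21 FPKM.

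**Figure D2:**
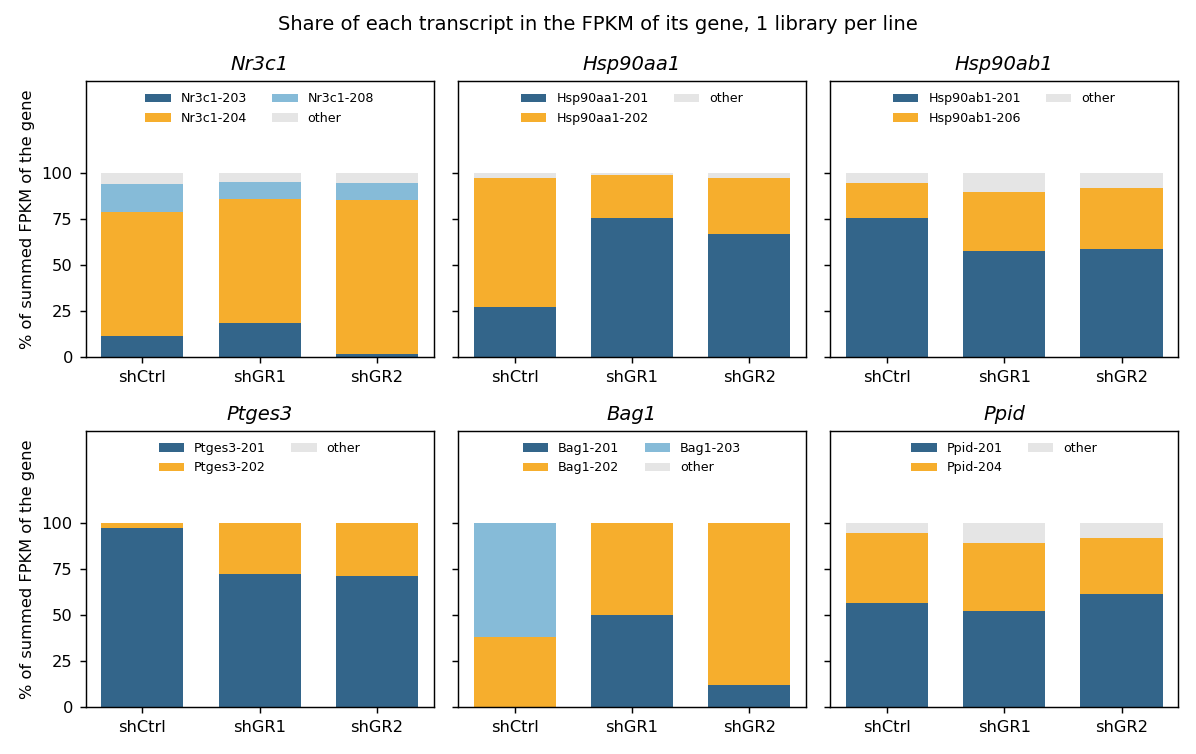
Share of each named transcript in the summed FPKM of its gene (stacked bars, % on the y axis) in shCtrl, shGR1 and shGR2, 1 library per line, for the 6 genes with 2 or more transcripts at 10% of the gene. The share of Hsp90aa1-202 was 70.4% in shCtrl and 23.5% and 30.2% in the knockdown lines, Ptges3-202 went from 2.90% to 27.8% and 29.0%, and Bag1-203 took 61.8% of the gene in shCtrl alone.

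Hsp90aa1 differed more in its isoforms than in its sum. Hsp90aa1-202 was at 410 FPKM in shCtrl against 125 in shGR1 and 140 in shGR2, while Hsp90aa1-201 was at 157, 402 and 310 FPKM. The main isoform of the control line was thus the minor one in both knockdown lines. Their coding exons are identical (10 exons, 2199 bases), so the encoded protein is the same. The transcripts differ in their first exon, in 100 bases at the start of exon 2 of Hsp90aa1-201 and in 423 bases that Hsp90aa1-202 has beyond the 3′ end of Hsp90aa1-201. Summed, they were at 567, 528 and 450 FPKM.

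Isoforms also differed more than the sum in Ptges3, the gene of p23, which stabilizes the closed HSP90 complex on the receptor. The gene, on chromosome 10 (128058954 to 128077272, plus strand), was at 191 FPKM in shCtrl against 219 in shGR1 and 209 in shGR2, on average 0.16 ± 0.05 on the log2 scale (SD, n = 2 lines) with a limma Benjamini-Hochberg adjusted p of 0.478. Ptges3-201 was lower in both knockdown lines, at 185, 158 and 148 FPKM. Ptges3-202, which lacks the 90 bases in capitals above, was at 5.55, 60.9 and 60.7 FPKM, nearly the same in both knockdown lines and over 10 times the control. Its log2 ratio was 3.46 ± 0.00 (SD, n = 2 lines), and the skipped exon keeps the reading frame, with 480 coding bases in Ptges3-201 and 390 in Ptges3-202. Ptges3-201 also extends 294 bases further at the 3′ end.

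Stip1 encodes HOP, the adaptor that passes the receptor from HSP70 to HSP90. On chromosome 19 (7020702 to 7039967), it has 1 transcript in the table. It was at 115 FPKM in shCtrl against 142 in shGR1 and 135 in shGR2, on average 0.27 ± 0.05 on the log2 scale (SD, n = 2 lines). Both knockdown lines lay above the control, and the limma Benjamini-Hochberg adjusted p was 0.353.

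On the HSP70 side, BAG1, a nucleotide exchange factor that inhibits receptor activity when overexpressed, and CHIP, a ubiquitin ligase that directs chaperone clients to the proteasome, differed from each other. Bag1, on chromosome 4 (40936398 to 40948294), was at 47.3 FPKM in shCtrl against 35.2 in shGR1 and 35.7 in shGR2, on average -0.42 ± 0.02 on the log2 scale (SD, n = 2 lines). Both knockdown lines lay close together at 74.4% and 75.6% of the control, and the limma Benjamini-Hochberg adjusted p was 0.288. Stub1, the gene of CHIP on chromosome 17 (25830505 to 25833404), was at 65.4, 65.6 and 68.1 FPKM, the mean log2 ratio being 0.03 ± 0.04 and the limma Benjamini-Hochberg adjusted p 0.898. Stub1 overlaps Jmjd8, Gm26694 and Mir3082, so its value is uncertain where the strand is not known.

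The isoforms of Bag1 differed between all 3 lines. Bag1-203 was at 29.2 FPKM in shCtrl and close to 0 in shGR1 (0.00476 FPKM) and shGR2 (0.000878 FPKM). Bag1-202 was at 18.1, 17.6 and 31.5 FPKM, and Bag1-201, with the longer coding part of 1065 bases, was listed at 0 in shCtrl and at 17.5 and 4.21 FPKM in the knockdown lines. The annotated ends of these transcripts are close. Bag1-203 begins 13 bases before Bag1-202, with the same 7 coding exons (657 bases), and Bag1-202 begins 38 bases before Bag1-201. The sum over the 3 transcripts (47.3, 35.2 and 35.7 FPKM) shifts little with the split, with a log2 ratio of -0.44 when transcripts are weighted by length and -0.42 otherwise. Ppid also had 2 large transcripts. Its coding transcript Ppid-201 was at 45.7, 52.7 and 56.2 FPKM and Ppid-204, which keeps an intron of 2376 bases, at 30.8, 37.3 and 27.8 FPKM.

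The share of a transcript in its gene was compared over genes with 2 or more transcripts and at least 10 FPKM in every library. Of 7 such genes of the receptor cycle, 3 had a transcript whose share moved by at least 20 percentage points in the same direction in both knockdown lines, against 4.4% of 6198 genes. The level of 20 points was set after seeing the data, and the shares have no replicate of a line. The largest moves were 61.8 points in Bag1, 40.2 in Hsp90aa1 and 24.9 in Ptges3, and Hsp90ab1 came next at 17.2. The move in Bag1 was that of Bag1-203, which begins only 13 bases before Bag1-202 and has the same coding exons. It therefore rests on how fragments were assigned between nearly identical transcripts. Fkbp5, Fkbp4 and Ppid moved by 1.83, 0.819 and 1.89 points, below the median of 3.83 over all 6198 genes. Between shGR1 and shGR2, 1.55% of these genes differed by at least 20 points, and Bag1, at 38.1, was one of them, while Hsp90aa1 differed by 8.41 and Ptges3 by 1.29 points.

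As a group, the 10 genes were about as often lower as genes in general. In both knockdown lines, 4 genes (Nr3c1, Fkbp5, Hsp90aa1 and Bag1) had a ratio to shCtrl under 1, compared with 43.8% of all expressed genes, and the other 6 had a ratio over 1, compared with 31.8%. The split over all genes, 6758 lower and 4904 higher, depended on scaling, with 5891 and 5792 when ratios were median-centred and 5485 and 6172 with quantile normalization. A ratio of at most 0.5 in both lines was found for Nr3c1 and Fkbp5 (3.66% of all genes), and 0 of the 10 had a ratio of at least 2 (2.54% of all genes). Fkbp4 and Stub1 were within 10% of the control in both lines, as were 15.7% of all genes. The median log2 ratio of the 10 genes was 0.05, beside -0.05 over all expressed genes. In shGR1 these medians were 0.03 and -0.03 and in shGR2 0.07 and -0.07.

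In the deposited scaling, 0 of the 10 genes and 0 of all 15438 had a limma p under 0.05 after Benjamini-Hochberg adjustment (0% lower and 0% higher). At an unadjusted limma p under 0.05, Nr3c1, Fkbp5 and Bag1 were lower (9.44% of all genes) and Hsp90ab1 and Stip1 higher (4.53% of all genes). The unadjusted limma p values were 0.000203 for Fkbp5, 0.0168 for Bag1, 0.0201 for Nr3c1, 0.0219 for Hsp90ab1 and 0.0479 for Stip1. Nr3c1 had the widest spread between the knockdown lines (SD 0.74) and Fkbp5 a narrow one (SD 0.06). The SD of Fkbp5 was wider, at 0.14, with protein-coding transcripts only. Its non-coding transcript Fkbp5-203 was listed at 0 in shCtrl and shGR1 and at 1.85 FPKM in shGR2. With protein-coding transcripts only, limma's Benjamini-Hochberg adjusted p was 0.00271 for Fkbp5 and 0.0405 for Nr3c1, and with robust moderation 0.0188 for Fkbp5.

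**Figure D3:**
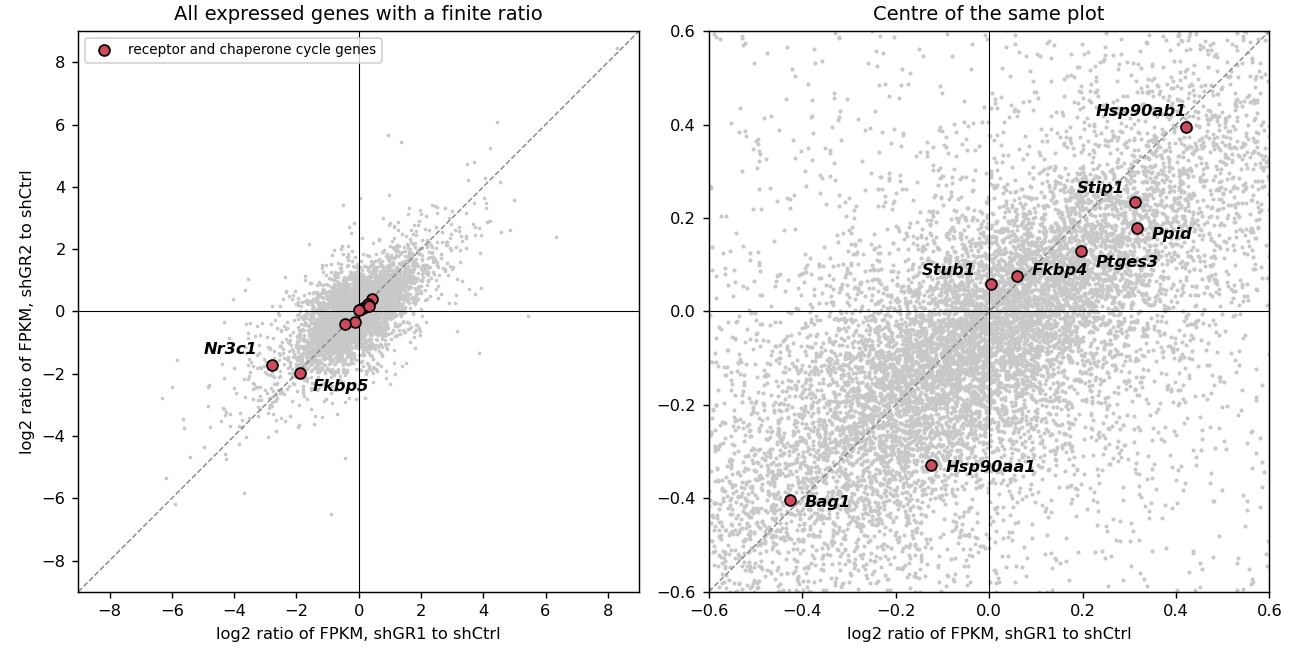
Log2 ratio of FPKM to shCtrl in shGR2 (y axis) against shGR1 (x axis) for all expressed genes with a finite ratio (grey) and the 10 genes of the receptor cycle (red), with the line of equality dashed. The left panel shows the full range, where Nr3c1 (-2.77 and -1.72) and Fkbp5 (-1.87 and -1.97) lie apart from the other 8, and the right panel its centre, where Bag1 (-0.43 and -0.40) and Hsp90aa1 (-0.12 and -0.33) lie below 0 in both lines.

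**Figure D4:**
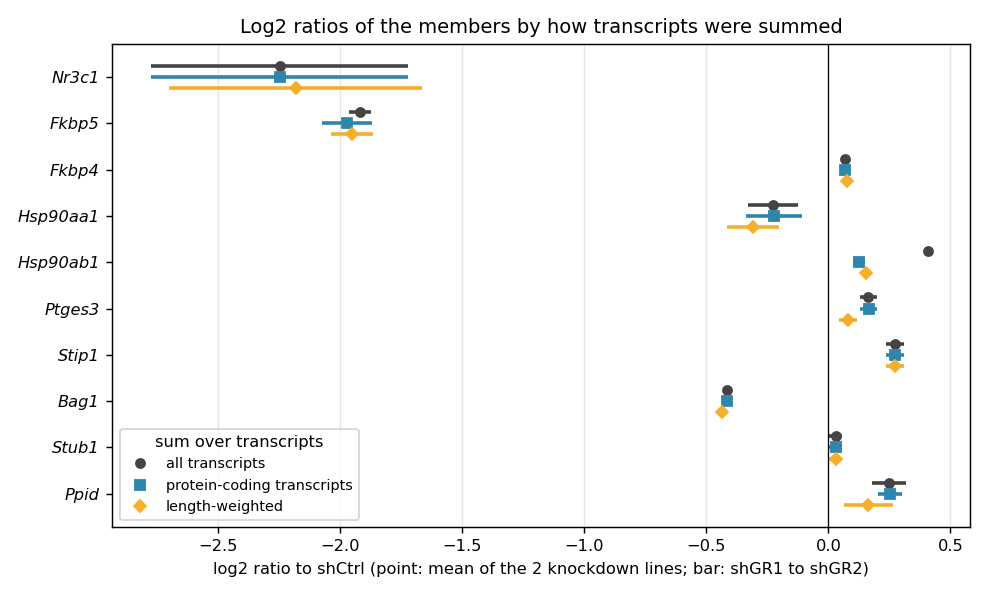
Log2 ratio to shCtrl of the 10 genes when all transcripts were summed (circle), only protein-coding transcripts (square) or transcripts weighted by length (diamond). Points are means of the 2 knockdown lines and bars join shGR1 and shGR2; the point of Hsp90ab1 is at 0.41 with all transcripts and at 0.12 and 0.16 with the other sums, while Nr3c1 and Fkbp5 lie between -2.25 and -1.92 with each.

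The genes around the cycle were counted in 7 lists of chaperone and transport genes. Of 100 listed genes, 95 were expressed. Of these, 33 (34.7%) were below shCtrl in both lines, 36 (37.9%) above it in both and 26 on different sides. Over all expressed genes, 43.8% were lower and 31.8% higher, and these shares also stand beside the counts of each list given next. The chaperone and transport genes had a median log2 ratio of 0.02. A ratio of at most 0.5 in both lines was found for 0 of them (3.66% of all genes). A ratio of at least 2 (2.54% of all genes) was found for 1, the cyclophilin gene Ppic. It is a gene of low level (0.290, 0.790 and 0.659 FPKM) and was named after its value was seen. By limma, 11 of the 95 were lower and 8 higher at an unadjusted p under 0.05, beside 9.44% and 4.53% of all genes. None passed the Benjamini-Hochberg adjustment.

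In the HSP70 and HSP40 loading step, 14 of 17 genes were expressed, 6 lower and 6 higher. Hspa8, the constitutive HSP70 that first binds the receptor, was at 555 FPKM in shCtrl against 893 in shGR1 and 904 in shGR2 (log2 ratio 0.70 ± 0.01, SD, n = 2 lines). The inducible HSP70 gene Hspa1b was at 112, 35.5 and 56.1 FPKM (-1.33 ± 0.47). Its near-identical copy Hspa1a was listed at 0.152 FPKM in shCtrl, so the value of Hspa1b is uncertain. The HSP40 gene Dnaja2 was higher in both lines, at 132, 199 and 188 FPKM (0.55 ± 0.06).

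Of 21 other HSP90 co-chaperone genes, all were expressed, 6 lower and 8 higher. Pih1d1, a subunit of the R2TP complex, was at 17.1 FPKM in the control and 11.5 and 11.6 in the knockdown lines (-0.57 ± 0.01), Ahsa2, a relative of the HSP90 ATPase activator AHA1, at 10.4, 16.5 and 13.5 (0.51 ± 0.20) and Ppp5c, the phosphatase PP5 found in receptor complexes, at 26.8, 18.4 and 21.1 (-0.44 ± 0.14). Of the HSP90 genes of other compartments, Hsp90b1 of the endoplasmic reticulum was at 287, 413 and 330 FPKM (0.36 ± 0.23), and the mitochondrial Trap1 differed in direction between the lines.

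Among 11 BAG proteins and partners of CHIP, 4 were lower and 3 higher. The ubiquitin-conjugating enzyme genes Ube2n (67.4, 95.6 and 89.1 FPKM, 0.45 ± 0.07) and Ube2v1 (61.3, 44.2 and 44.1 FPKM, -0.47 ± 0.00), whose products work as a pair, lay on opposite sides of the control, and Bag5 was at 0.19 ± 0.07. Of 18 genes for dynein, dynactin, importins and other parts of receptor transport and nuclear import, 10 were higher and 3 lower. Kpna2, an importin alpha, was at 98.9, 136 and 124 FPKM (0.39 ± 0.09), with Ipo8 at 0.30 ± 0.16 and the exportin gene Xpo1 at 0.22 ± 0.05.

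Of 20 expressed FKBP and cyclophilin genes outside the cycle, 10 were lower and 4 higher. Fkbp1a, the gene of FKBP12, was at 137, 103 and 102 FPKM (-0.42 ± 0.01), Fkbp8 at 130, 94.3 and 96.7 FPKM (-0.44 ± 0.03) and the spliceosomal cyclophilin gene Ppih at 5.30, 8.63 and 8.22 FPKM (0.67 ± 0.05). Among 9 heat shock factors and other heat shock genes, 4 were lower and 4 higher, with the master factor Hsf1 at -0.42 ± 0.22 and the small heat shock protein genes Hspb1 at -0.86 ± 0.08 and Cryab at -0.52 ± 0.21. Other receptors that HSP90 holds were mostly under 0.3 FPKM. Of 6 such genes, Ahr (37.7, 36.8 and 40.0 FPKM) and Esr1 (1.74, 3.18 and 1.72 FPKM) were expressed, and the mineralocorticoid receptor gene Nr3c2 was under 0.3 FPKM in all 3 lines.

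Fkbp5 was 1 of many genes known to be induced by glucocorticoids. Of 17 others in the list, all expressed, 11 were below shCtrl in both lines and 5 above it, beside 43.8% and 31.8% of all expressed genes. Their median log2 ratio was -0.65, and at an unadjusted limma p under 0.05 the counts were 9 and 3, beside 9.44% and 4.53% of all genes. The sodium channel gene Scnn1a was at 168, 21.7 and 27.2 FPKM (-2.79 ± 0.23), and the transcription factor gene Zbtb16 (-6.05 ± 0.20) and the kinase gene Sgk1 (-5.04 ± 0.52) had lower ratios than Fkbp5. The receptor-induced genes thus ranged from -6.05 for Zbtb16 to 1.65 for Angptl4 (named after its value was seen), with Fkbp5 within that range.

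**Figure D5:**
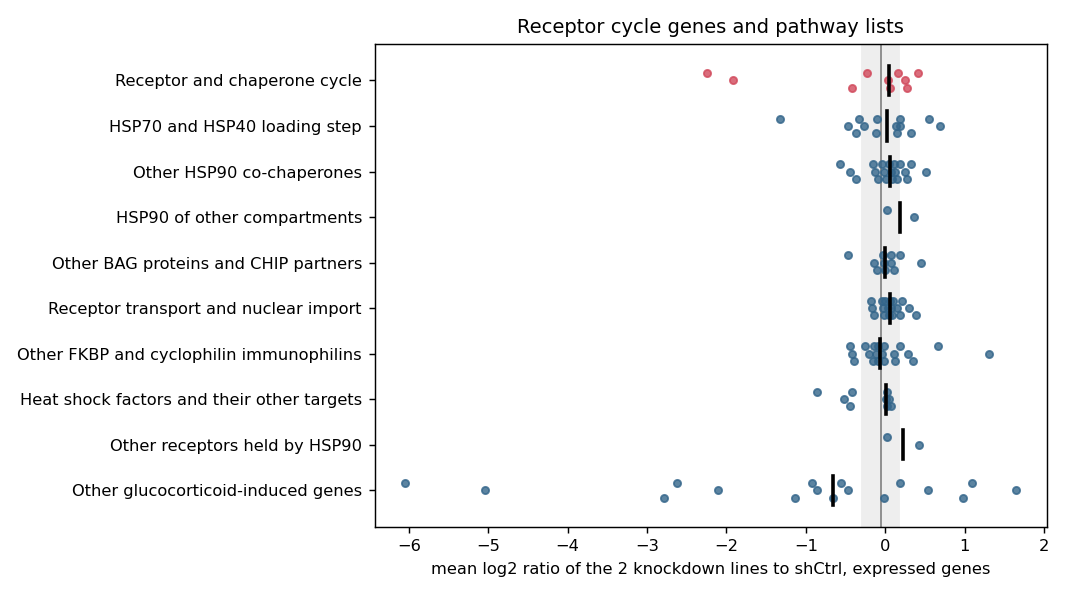
Mean log2 ratio of the 2 knockdown lines to shCtrl (x axis) of every expressed gene with a finite ratio in the receptor and chaperone cycle (red) and in 9 lists (blue), with the median of each as a black bar. The grey line and band mark the median and the middle 50% of all expressed genes; the medians of the chaperone and transport lists lie between -0.06 and 0.19, and that of the other glucocorticoid-induced genes is at -0.65.

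The genes nearest to Nr3c1 and Fkbp5 were found by the distance between pairs of log2 ratios (shGR1 and shGR2 to shCtrl) over 12322 genes whose mean level was at least 1 FPKM. Those near Nr3c1 included Cyfip2, at 4.21 FPKM in shCtrl against 0.645 in shGR1 and 1.49 in shGR2 (distance 0.232), and Zhx3, Atp6v0a4 and Gjb1 at distances from 0.232 to 0.367. Krt20, a keratin gene, was nearest to Fkbp5, at 116, 32.0 and 30.3 FPKM (distance 0.0243), followed by Gad2, Pim3, B3gnt7 and Camkk2 at distances from 0.0481 to 0.240. The likeness is over 2 lines that share 1 control library.

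The promoter table held 6 of the 10 genes (Fkbp5, Fkbp4, Ptges3, Stip1, Bag1 and Stub1). The motifs were searched on both strands in the 250 bases before the start. The full glucocorticoid response element, AGAACA followed after 3 bases by TGTTCT, was in 0 of the 6 and in 0.00913% of 32851 promoters. It is too rare for its absence to set these genes apart, and sites outside the 250 bases were not searched. The half-site AGAACA, which the full element contains, was in 0 of the 6 and in 16.1% of all promoters. The heat shock element, GAANNTTC followed after 2 bases by GAA, was likewise in 0 of the 6 (0.466% of all). The shorter GAANNTTC, part of the former, was in Fkbp4 at 151 to 144 bases before the start and in Stub1 at 123 to 116 bases before it, and in 6.69% of all promoters. The stretch searched for Stub1 (chr17:25832920-25833169, GRCm38) lies inside the GENCODE span of that gene, and so does its match.

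The libraries and markers set the limits of these values. The FPKM of a library summed to between 427704 and 462522, and counting errors are not known, because counts of reads were not analysed here. From the smallest FPKM steps, the libraries held fragments worth very roughly 0.0275 to 0.0375 FPKM each on a transcript of 1 kb, a measure that entered no test. Of 10 principal cell markers 7 were expressed, and their summed level was 311 FPKM in shCtrl against 91.6 in shGR1 and 106 in shGR2. Of these 7, 6 were below shCtrl in both lines and 1, Aqp3, was above it (6.49, 9.11 and 8.97 FPKM, named after its value was seen). Scnn1a, also in the list of glucocorticoid-induced genes, was the largest term of the sum in shCtrl, at 168, 21.7 and 27.2 FPKM. Aqp2 was at 9.55, 0.751 and 2.14 FPKM, and Scnn1b, Elf5 and Kcnj1 were under 0.3 FPKM in all lines. Of 6 intercalated cell markers 2 were expressed (Atp6v1b1 and Rhcg), with sums of 52.4, 22.5 and 24.2 FPKM and Foxi1 listed at 0. Markers of fibroblasts (4 of 6 expressed, sums from 3.93 to 9.10 FPKM), leukocytes (2 of 6, from 5.37 to 9.24) and proximal tubule (2 of 5, from 1.30 to 2.51, with Slc34a1 and Slc22a6 at 0) were low in each line. The part of cell state in the levels of the 10 genes was not tested.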

How the data were processed

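Total RNA of the shCtrl, shGR1 and shGR2 cells, 1 library each, was sequenced and quantified by the authors, who deposited FPKM for each Ensembl transcript. Tools named in the processing notes of the submitters are HISAT2, Cufflinks 2.2.1, Cuffdiff and bcl2fastq 2.20, and the build named is GRCm39. Of 127971 transcripts, 98.6% had deposited loci that span their place in GENCODE M21, so positions are on GRCm38. Strandedness was not given in the sources used here. Deposited columns of ratio, log2 ratio, p-value and q-value hold comparisons by the authors and were not used.

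FPKM were summed by gene symbol, and log2 ratios to shCtrl were taken with no pseudocount. Genes over 0.3 FPKM in any library were tested with limma 3.58.1 (R 4.3.3) on log2(FPKM + 0.1). The 1 residual degree of freedom measures only the spread between the knockdown lines. Limma pulls that spread toward an abundance trend over all genes, so its p values rest on both. The pseudocount moved a log2 ratio of the 10 genes by at most 0.0193. P values are two-sided and were adjusted by Benjamini-Hochberg over all genes tested. The script was tested on simulated data. Tables and figures were made with Python 3.11.15, pandas 2.3.3 and matplotlib 3.10.9.

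The 10 genes and all lists were chosen with earlier results of these data known. Named were the 10 genes, their transcripts with at least 10% of the gene, up to 3 genes per list with the largest mean log2 ratio among those averaging at least 1 FPKM with one direction in both lines, and the 5 genes most like Nr3c1 and Fkbp5, 1 of which is not reported here. Alternatives were median-centred or quantile-normalized values, other filters and pseudocounts, robust moderation, protein-coding transcripts only, each knockdown line left out and, chosen after seeing the data, sums weighted by transcript length.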

Additional observations from a re-analysis of the deposited data

How the results depend on the processing

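Of 90 log2 ratios of the 10 genes under 9 alternatives, 87 kept their direction and their side of limma's Benjamini-Hochberg threshold and 0 reversed. The 3 others newly passed it, Nr3c1 at -2.23 (adjusted p 0.0405, range over the alternatives 0.0405 to 0.439) and Fkbp5 at -1.97 (0.00271) with protein-coding transcripts only, and Fkbp5 at -1.92 (0.0188, range 0.00271 to 0.395) with robust moderation. Limma called 0 genes in the deposited scaling, 277 lower and 74 higher among 11854 genes with protein-coding transcripts only, and 82 lower and 28 higher with robust moderation, against 0 with the other 7 alternatives. At an unadjusted limma p under 0.05 the deposited scaling gave 1458 lower and 699 higher genes. With a 2-fold limit the counts of the 10 genes were 2 lower and 0 higher, in place of 4 and 6. With quantile normalization 3 were lower. The cause was not tested. Leaving out a knockdown line leaves no residual degree of freedom, so those ratios have no test, and 4 lower and 6 higher genes were counted with either line alone. Adding rows named as pseudogene copies of the 10 genes gave no value, since there were 0 such rows. No paired analysis was possible because shCtrl is 1 library. FPKM without counts and 1 library per line limit the precision of every value, most of all the transcript shares, which rest on how fragments were assigned between overlapping isoforms.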
